A study of Mus musculus with 2 samples.

Results

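The genes described here are 10 members of the cone phototransduction cascade, *Opn1sw*, *Gnat2*, *Gnb3*, *Gngt2*, *Pdc*, *Pde6c*, *Pde6h*, *Cnga3*, *Cngb3* and *Arr3*, of 28692 genes listed in the count matrices. They were chosen by name, and each has 1 row in both matrices. The data come from retinas of *LHX4::GFP* mouse embryos (strain Tg(Lhx4::EGFP)KN199Gsat/Mmucd) at E14.5. The transgene is an inserted bacterial artificial chromosome from which the start of LHX4 is made as a fusion with EGFP, and the mice were heterozygotes. Its GFP therefore follows *Lhx4*, which is also used by bipolar cells of the older retina. Retinas of 2 litters were pooled, and cells were sorted by flow cytometry into GFP+ cells, which the labels call cone photoreceptors, and GFP- retinal cells. Both gates therefore share the genotype, the age and the cell suspension. Each gate gave 1 droplet library in which captured transcript ends are tagged with a unique molecular identifier (UMI), and copies of 1 molecule count once.

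In a cone, light turns the pigment of the opsin, the opsin activates the G protein transducin, and transducin releases the inhibitory subunit of a phosphodiesterase that then breaks down cGMP. The loss of cGMP closes a cation channel in the outer segment, and kinases and arrestin shut the pigment off again. Cones and rods use the same order of steps with separate genes for most of the subunits, and outer segments are built only after birth in mice, long after cones are born.

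The GFP+ library kept 3689 cells with 15503658 UMIs and a median of 3894 UMIs per cell. The GFP- library kept 3389 cells with 30094636 UMIs and a median of 8848 UMIs per cell. Levels are UMIs per 1000000 (CPM) summed over cells, and because the assay counts 1 end of each transcript they are not divided by gene length. There was 1 library per gate and no replicate, so no difference between gates or cell groups was tested. The 95% intervals given (exact Poisson for a level, exact conditional binomial for a ratio, Clopper-Pearson for a share) cover counting error only. They do not cover the spread between cells. Levels per gate do not separate fewer expressing cells from less RNA per cell. All 8 genes of a cone list were detected in the GFP+ library, and their summed level was 4938 CPM, against 250.5 CPM in the GFP- library. The list holds *Lhx4*, which the sort itself follows, and photoreceptor factors not confined to cones, such as *Otx2* with 1486 CPM. Its sum therefore cannot by itself check the label of cones. Of the cone genes in it, *Thrb* had 595 CPM in GFP+ against 8.37 CPM in GFP-, and *Rxrg* 246 against 4.32 CPM. The libraries shared 20 cell barcodes, and the GFP- cells with those barcodes held 1 member UMI in all.

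Sequence before the start site was available for 6 of the 10 members (RefSeq, GRCm38.p6), namely *Gnat2*, *Pdc*, *Pde6h*, *Cnga3*, *Opn1sw* and *Arr3*. It is shown because *Otx2* and *Crx*, homeodomain factors of photoreceptors that recognise the letters TAATCC and close variants, were abundant in the same cells. The 250 bases before each start were searched on both strands for TAATCC and for TAATCT, the second being added after the sequences had been seen. One or the other was present in 12.8% of 32851 promoters of this length (TAATCC in 6.25%, TAATCT in 7.31%). Among the members, *Gnat2* held 1 TAATCC, written GGATTA on this strand, that began 19 bases before the start, *Opn1sw* held 1 TAATCT at 49 bases, and *Arr3* held 3 TAATCT at 116, 102 and 10 bases. The windows of *Pdc* and *Pde6h* and both windows of *Cnga3* held neither. A match describes letters and is not evidence of binding. The sequences of *Opn1sw* and *Arr3*, the opsin and the arrestin of the cascade, are given in full. They are the least often found of the members detected in GFP+ cells, and both hold a match. No sequence without a match is printed. The *Gnat2* sequence is given only around its match, because the annotated gene begins before its window and annotated exons overlap it. The bases after the start used for *Gnat2* were not found in its GENCODE transcripts, so the distance of its match to a start is uncertain. The window of *Opn1sw* also lies inside its annotated gene, which begins further upstream. No annotated exon overlaps that window, and the bases after the start used for *Opn1sw* were found in its transcripts. Capitals mark the matches.
Opn1sw, chr6:29380514-29380763, minus strand: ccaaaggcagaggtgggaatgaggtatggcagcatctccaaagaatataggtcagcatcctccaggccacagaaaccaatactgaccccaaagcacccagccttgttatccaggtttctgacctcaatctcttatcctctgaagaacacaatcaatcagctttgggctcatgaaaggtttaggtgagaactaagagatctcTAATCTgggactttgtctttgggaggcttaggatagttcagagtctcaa
Arr3, chrX:100605247-100605496, plus strand: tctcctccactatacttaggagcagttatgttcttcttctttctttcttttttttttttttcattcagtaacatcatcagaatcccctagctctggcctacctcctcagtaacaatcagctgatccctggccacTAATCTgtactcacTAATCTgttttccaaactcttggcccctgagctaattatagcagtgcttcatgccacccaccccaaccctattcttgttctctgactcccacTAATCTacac
Gnat2, chr3:108093035-108093064, plus strand: gggacaatccccGGATTAggaaggagctct

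The comparison of the gates asks which parts of the cascade were already transcribed in embryonic cones. Transcripts of 9 of the 10 members were present in the GFP+ library, and all 9 were over 10-fold higher there than in the GFP- library. The transducin genes, phosducin and 1 channel subunit were abundant, the catalytic phosphodiesterase subunit, the other channel subunit and S-opsin were low, cone arrestin was barely detected, and the inhibitory phosphodiesterase subunit was not found. Of 15236 genes with at least 10 UMIs, 23.0% were at least 2-fold higher in GFP+ and 3.29% at least 10-fold higher. The median log2 ratio was 7.35 over the 9 members that passed that minimum and 0.30 over all genes tested.

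The pigment gene *Opn1sw* (chr6:29376671-29388468, GRCm38) encodes the short-wavelength opsin. It had 228 UMIs in the GFP+ library, 14.7 CPM (12.9 to 16.7), and 0 in the GFP- library, and was at least 147.5-fold higher in GFP+ when 3 counts stand for the 0. The middle-wavelength opsin gene *Opn1mw*, which mouse cones express later, was listed at 0 in both.

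Among the transducin genes, *Gngt2* (chr11:95837216-95845734), the gamma subunit, was the highest of all members. It had 28907 UMIs in the GFP+ library, 1865 CPM (1843 to 1886), and 8.27 CPM (7.28 to 9.37) in the GFP- library. The beta subunit gene *Gnb3* (chr6:124834240-124840275) had 606 CPM (594 to 618) against 4.52 CPM (3.79 to 5.35). The alpha subunit gene *Gnat2* (chr3:108092789-108101432), which carries the signal from the opsin to the phosphodiesterase, was lower than both, at 170 CPM (164 to 177) against 1.46 CPM (1.06 to 1.96). The 3 subunits of 1 heterotrimer thus stood at levels that did not overlap, with alpha lowest. *Pdc* (chr1:150319417-150333906) encodes phosducin, which binds the beta and gamma subunits, and its level of 725 CPM (712 to 738) lay between those of *Gngt2* and *Gnb3*, against 4.42 CPM (3.70 to 5.24) in GFP- cells.

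The phosphodiesterase genes differed from each other. *Pde6c* (chr19:38132781-38183958), the catalytic subunit, had 411 UMIs and 26.5 CPM (24.0 to 29.2) in GFP+ and 1 UMI in GFP-. *Pde6h* (chr6:136923832-136968865), the inhibitory gamma subunit of cones, had 0 UMIs in 15503658 from GFP+ cells, which allows up to 0.238 CPM, and 2 UMIs in GFP- cells, 1 in each of the progenitor clusters 2 and 3 described below.

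The channel subunits also differed. *Cngb3* (chr4:19280850-19510623), the modulatory subunit, had 157 CPM (151 to 163) against 1.56 CPM (1.15 to 2.08), and *Cnga3* (chr1:37214434-37263384), the subunit that forms the pore, had 28.4 CPM (25.9 to 31.2) against 2 UMIs, 0.0665 CPM. The level of *Cngb3* in GFP+ cells was therefore above that of *Cnga3* with no overlap of their intervals. *Arr3* (chrX:100605497-100618493), cone arrestin, had 21 UMIs in 21 GFP+ cells, 1.35 CPM (0.839 to 2.07), and 0 in GFP-, a difference of at least 13.6-fold.

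The ratios of the members seen in both gates ran from 100 (75.2 to 137) for *Cngb3* to 798 (142 to 31587) for *Pde6c*, whose GFP- level rests on 1 UMI. Counted per cell without scaling to depth, each ratio was 0.473 times as large, since GFP- cells held more UMIs. With no filter on cells, ratios rose to at most 1.53 times their value. Some members share ground with a gene on the other strand, and the counting strand was not given in the sources used here. *Abi3*, which overlaps exons of *Gngt2*, had 121 UMIs in GFP+ and 1 in GFP-, and the antisense gene 2310030A07Rik within *Pdc* had 55 and 0. Both neighbours had far fewer UMIs than the members, and the second shares no exon with *Pdc*. *Calu*, which overlaps exons of *Opn1sw*, had 955 UMIs in GFP+ and 1570 in GFP-, where *Opn1sw* was at 0, and *Arhgdib*, which overlaps *Pde6h*, had 2 and 27.

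**Figure D1:**
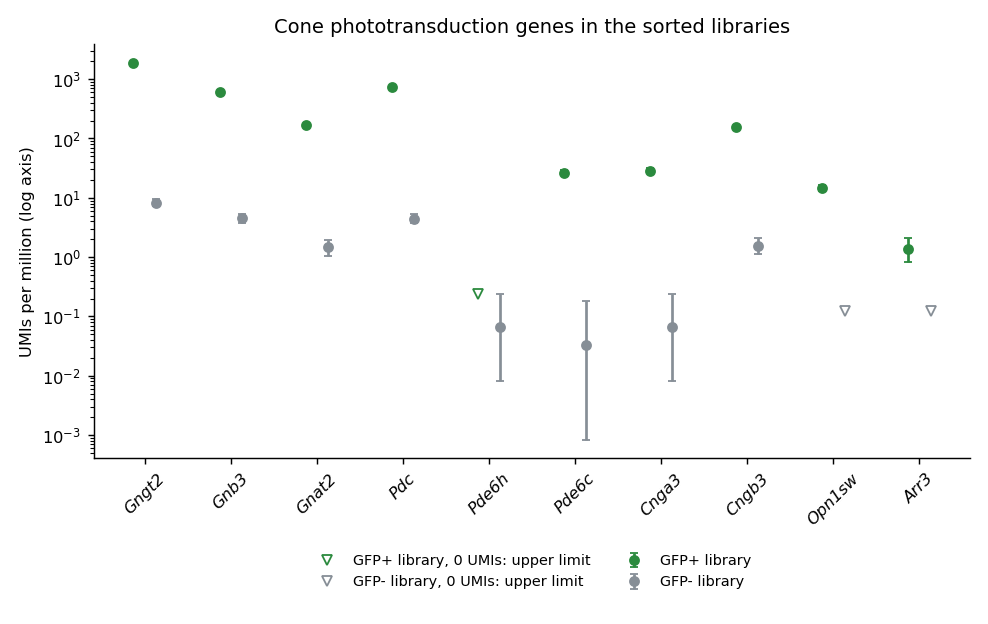
Levels of the 10 members in CPM on a log axis, in the GFP+ library (green) and the GFP- library (grey), summed over kept cells. Bars are exact Poisson 95% intervals and open triangles the upper limit of a gene with 0 UMIs. Every member but *Pde6h* lies higher in GFP+, from 1865 CPM for *Gngt2* to 1.35 CPM for *Arr3*.

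The rod forms of the same proteins were mostly near 0 in GFP+ cells. *Gnat1* (0.258 CPM), *Cnga1* (0.516 CPM), *Cngb1* (0 UMIs), *Pde6a* (0.323 CPM) and *Pde6b* (1 UMI) were far below their cone forms. *Gngt1*, the rod gamma subunit of transducin, had 41.3 CPM (38.1 to 44.6) in GFP+ against 0.432 CPM in GFP-, and was 95.6-fold higher. The inhibitory gamma subunit of the rod phosphodiesterase, *Pde6g*, had 16.5 CPM (14.6 to 18.7) in the cells where its cone form was at 0, against 0.332 CPM in GFP-. The rod arrestin gene *Sag* had 15.7 CPM (13.8 to 17.8), above the 1.35 CPM of *Arr3*, against 3.82 CPM in GFP-. Thus for the gamma subunit of the phosphodiesterase and for arrestin the rod gene was the higher of the pair, and for the alpha, beta and gamma subunits of transducin, the catalytic phosphodiesterase subunit and both channel subunits the cone gene was. Of the 11 rod genes listed, 6 had 10 UMIs or more, of which 4 were at least 2-fold higher in GFP+ and 1 was lower, *Gnb1*, a beta subunit used in many cell types, at 137 CPM against 283 CPM.

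Of 15 further genes of the cone response, 11 had 10 UMIs or more, 7 of these were at least 2-fold higher in GFP+ and 2 were lower. *Unc119*, which binds transducin alpha for transport, was the highest at 880 CPM against 83.9 CPM. The channel gene *Kcnv2* (55 UMIs against 1) and the cation exchanger gene *Slc24a2*, at 20.5 CPM against 0.332 CPM (10 UMIs), had the largest ratios. *Pde6d*, a carrier of lipid-modified proteins, was similar in both, at 105 and 89.8 CPM. Most genes that restore the dark state had few UMIs in GFP+: *Grk1* had 8 UMIs, *Gucy2e* 13, *Gucy2f* 1, *Guca1a* 7, *Guca1b* 1 and *Rcvrn* 0. *Guca1a* and *Guca1b* were the 2 lower genes, with 38 and 11 UMIs in GFP-. Among the genes of recovery the highest was *Rgs9*, which speeds the return of transducin to rest, with 16.2 CPM against 1.20 CPM.

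Factors of photoreceptor fate were high in the same library. Of 12 listed, all had 10 UMIs or more and 11 were at least 2-fold higher in GFP+, led by *Otx2* with 1486 CPM against 97.2 CPM, *Neurod1* with 1284 against 108 CPM and *Crx* with 824 against 20.6 CPM. The thyroid hormone receptor gene *Thrb* and its partner *Rxrg*, both of cones, had 595 and 246 CPM in GFP+ and 8.37 and 4.32 CPM in GFP-. *Prdm1*, which favours photoreceptor over bipolar fate, had 354 against 9.34 CPM, and *Lhx4*, the gene behind the GFP signal, 139 against 1.66 CPM. *Rorb*, also used in progenitors, was the exception, at 650 CPM against 756 CPM.

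The cells of both libraries were clustered together with the members left out of the genes used, which gave 9 clusters. Clusters 1, 5 and 7 carried the cone list and held 98.6% of GFP+ cells and 3.63% of GFP- cells. Each of the 9 members detected in GFP+ had its highest level in cluster 1 or 7. Cluster 1 was the largest, with 3054 GFP+ and 26 GFP- cells, and its 10 leading genes by fold held *Pcp2* of the bipolar list and photoreceptor genes such as *Rbp3* but none of the cone list. Cluster 5, with 308 GFP+ and 96 GFP- cells, was led by *Fabp7*, and its 10 leading genes held no marker of any list, though all 8 cone markers were detected in its GFP+ cells. The clusters are therefore compared by number. Cluster 7, with 277 GFP+ cells and 1 GFP- cell, was led by the amino acid transporter gene *Slc7a3* and genes of the stress response such as *Atf3* and *Trib3*.

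Outside these clusters the members were almost absent from GFP- cells but not from the few GFP+ cells. The 3266 other GFP- cells held 63 member UMIs in 54 cells, and 1 cell had 5 or more. Once every cell was thinned to 3200 UMIs, a *Gngt2* UMI was found in 0.161% of GFP- progenitors of cluster 2 and 0.146% of cluster 3, progenitors that should lack the gene. Of the 50 other GFP+ cells, 23 held a member UMI, 52 UMIs in all. The 23 GFP+ cells of the progenitor cluster 2 had 85.9 CPM (48.1 to 142) of *Gngt2*, 80.2 CPM (43.8 to 135) of *Pdc*, 40.1 CPM (16.1 to 82.6) of *Gnb3* and 22.9 CPM (6.24 to 58.7) of *Cngb3*, against 0.545 CPM of *Gngt2* in the GFP- cells of that cluster. In 20 of them thinned to 3200 UMIs, *Gngt2* was found in 4, *Gnb3* in 3, *Pdc* in 2 and *Cngb3* in 2. Whether these UMIs are background of the GFP+ library was not tested. Among the GFP- cells outside clusters 1, 5 and 7, *Gnb3* was the commonest member. It held 28 of the 63 UMIs. In GFP- cells of cluster 4, named by markers of ganglion and amacrine precursors, it had 10 UMIs against 2 of *Gngt2*, and in cluster 6, named by amacrine and horizontal markers, 10 against 1, while among GFP- cells of clusters 1, 5 and 7 it had 108 against 234. The counts in clusters 4 and 6 thus did not keep the ratio of the cone clusters, but they rest on few UMIs.

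Clusters 5 and 1 were compared first for an order in which the members might have come on. That cells of cluster 5 are younger is an assumption drawn from *Atoh7*, and it was not tested. For the cone subclusters of its own clustering, the paper proposes time of differentiation or dorsal-ventral position, and states that their meaning is not yet known. Of clusters 1, 5 and 7, *Atoh7*, a gene of retinal progenitors around their last division, was highest in cluster 5. It had 182 CPM in GFP+ cells of cluster 5 against 44.8 CPM in those of cluster 1, and 268 CPM in the GFP- cells of cluster 5. Of the 9 detected members, 8 were lower in cluster 5, to different degrees, and *Arr3* had too few UMIs to place. *Gnat2*, *Cngb3*, *Gngt2* and *Gnb3* were at 34.3% or more of their cluster 1 level, whereas *Cnga3* and *Opn1sw* were nearly absent. Of the 9 members, 8 were at least 2-fold higher in cluster 1, where 10.8% of 13051 genes were.

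Set against its own level in cluster 1, *Gnat2* stood highest in the GFP+ cells of cluster 5, at 48.8% (41.5 to 57.0), with 94.5 CPM against 194 CPM. *Cngb3* followed at 40.9% (34.0 to 48.8), *Gngt2* at 36.6% (34.6 to 38.6) and *Gnb3* at 34.3% (31.1 to 37.8). The intervals of *Gnat2* and *Gngt2* did not overlap, while *Cngb3* could not be told from either, nor *Gngt2* from *Gnb3*. *Pdc* was lower, at 27.5% (24.9 to 30.3), with 230 CPM against 836 CPM. *Pde6c* had 12 UMIs in cluster 5 and 22.4% (11.5 to 39.7) of its level. *Cnga3* had 4 UMIs and 6.75% (1.83 to 17.4), and *Opn1sw* 1 UMI against 215 and 3.11% (0.0785 to 17.5). The last 2 intervals overlapped each other and that of *Pde6c*, but lay under those of *Pdc*, *Cngb3* and the transducin genes, while that of *Pde6c* overlapped those of *Pdc*, *Gnb3*, *Gngt2* and *Cngb3*. *Arr3* had 0 UMIs in cluster 5 and 19 in cluster 1, which sets no order. This measure does not depend on how abundant a gene is, and *Gnat2*, the lowest of the transducin genes in level, was the highest by it.

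**Figure D2:**
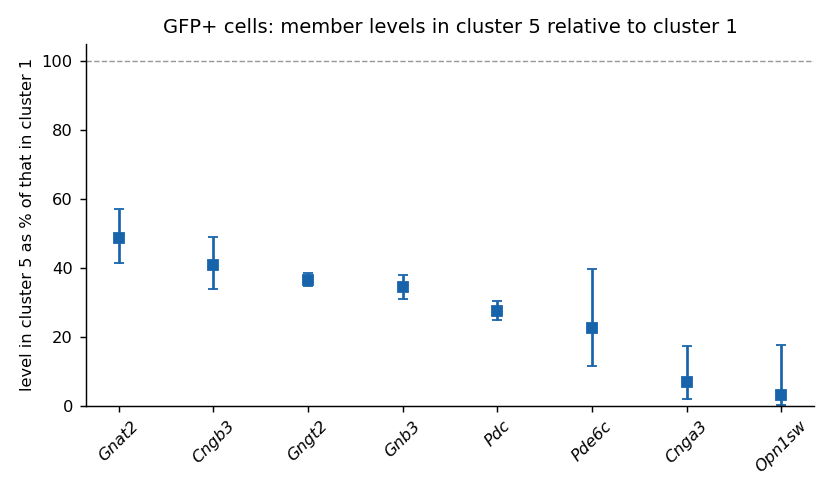
Level of 8 members in GFP+ cells of cluster 5 as a percentage of their level in GFP+ cells of cluster 1, with exact conditional binomial 95% intervals and a dashed line at equal levels. The values fall from 48.8% for *Gnat2* to 3.11% for *Opn1sw*.

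The share of cells with a UMI was also lower in cluster 5. At 3200 UMIs per cell, *Gngt2* was found in 22.9% of 96 GFP- cells of cluster 5, 73.1% of 297 GFP+ cells of cluster 5 and 97.1% of 2528 GFP+ cells of cluster 1. *Pdc* was found in 19.8%, 41.4% and 84.3%, and *Gnb3* in 24.0%, 50.8% and 83.3%. In the GFP- cells of cluster 5 these 3 genes were thus found at shares whose intervals overlapped. In GFP+ cells of the cluster the share of *Gngt2* was the highest, but shares follow abundance. *Cnga3* was found in 0%, 1.01% and 9.57%, and *Opn1sw* in 0%, 0.337% and 4.11%, where 0 of 96 cells allows up to 3.77%. Set against its own level in GFP+ cells of cluster 1, *Gngt2* stood at 4.92% in the GFP- cells of cluster 5. By that measure *Gnb3* stood at 13.78%, *Pdc* at 13.22%, *Cngb3* at 12.49% and *Gnat2* at 12.05%. The interval of *Gngt2* lay below those of the other genes named. The GFP- cells of cluster 5 held 102.7 CPM of *Gngt2*, and the GFP+ cells 7.44-fold more (5.81 to 9.68), a wider gap than the 2.49-fold of *Gnb3* (1.90 to 3.31) and the 2.08-fold of *Pdc* (1.61 to 2.72). These cells came from separate libraries and also differed in depth (median 6737 UMIs in GFP-, 5880.5 in GFP+), in the cone list (3362 and 4638 CPM) and in the neurogenic list (2575 and 1813 CPM), and the part of these differences was not tested. Against the GFP+ cells of cluster 2, where *Gngt2* was found in 20% (5.73 to 43.7), *Gnb3* in 15.0% (3.21 to 37.9) and *Pdc* in 10.0% (1.23 to 31.7), the shares of these 3 genes in GFP+ cells of cluster 5 were higher with no overlap of intervals. That of *Cngb3*, 22.6% against 10.0% (1.23 to 31.7), overlapped, and those of *Pde6c*, *Cnga3* and *Opn1sw* lay within the 16.8% that 0 of 20 cells allows.

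**Figure D3:**
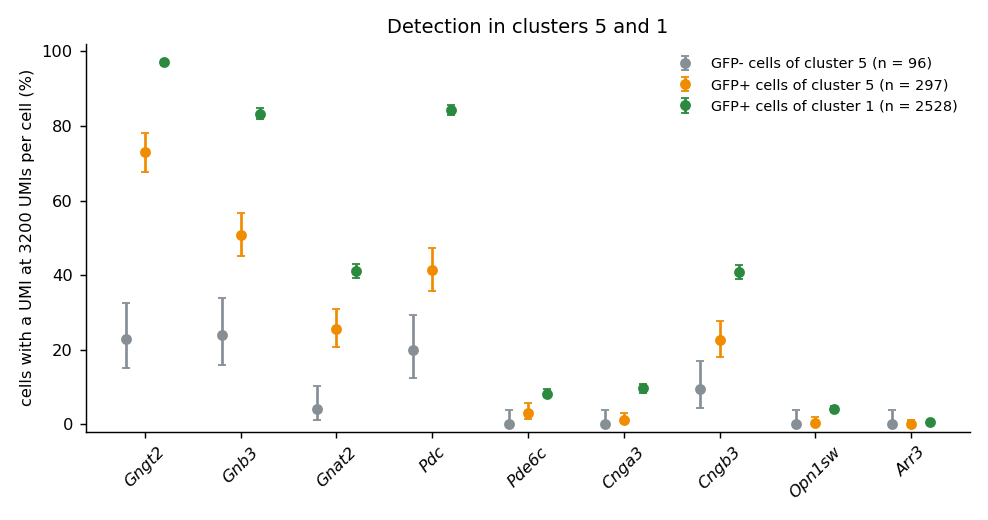
Share of cells with a UMI of each detected member after thinning to 3200 UMIs per cell, in GFP- cells of cluster 5 (grey), GFP+ cells of cluster 5 (orange) and GFP+ cells of cluster 1 (green), with Clopper-Pearson 95% intervals. *Gngt2* goes from 22.9% to 73.1% to 97.1%, while *Opn1sw* is at 0%, 0.337% and 4.11%.

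Other values moved with this contrast. GFP+ cells of cluster 5 were deeper (median 5880.5 UMIs) than those of cluster 1 (3781.5). Summed over whole lists, bipolar markers (4 of 6 detected in cluster 5, *Vsx1* and *Trpm1* at 0) had 20.4 CPM in cluster 5 and 128 CPM in cluster 1, most of it *Pcp2* with 12.7 and 109.8 CPM. Markers of ganglion cells (9 of 10, *Rbpms* at 0) had 713 and 358 CPM, markers of ganglion and amacrine precursors (5 of 6, *Pou4f2* at 0) 471 and 265 CPM, markers of neurogenic progenitors (8 of 8) 1813 and 1217 CPM, markers of multipotent progenitors (9 of 9) 218 and 169 CPM, and cone markers (8 of 8) 4638 and 5138 CPM. Their part in the result was not tested. Among the regulators, *Otx2* was 1.21-fold (1.16 to 1.26) and *Crx* 0.880-fold (0.836 to 0.927) in cluster 1 relative to cluster 5, while *Lhx4* was 1.94-fold (1.64 to 2.32), *Thrb* 2.20-fold (2.02 to 2.40) and *Sall3* 3.06-fold (1.37 to 8.50), the last on 6 UMIs in cluster 5. When depth, gene number and cell cycle were regressed out ahead of clustering, the *Atoh7*-highest cone-like cluster had 1434 GFP+ cells in place of 308. Under that clustering 2 members were at least 2-fold higher in the largest cluster, *Cnga3* (2.99-fold) and *Arr3* (2.93-fold), and *Opn1sw* was 0.830-fold, so that the place of *Opn1sw* rests on the clustering chosen. The share of all genes at least 2-fold higher was not computed for that clustering, so the count of 2 has no background.

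As a second reading, the 3639 GFP+ cells of clusters 1, 5 and 7 were ordered by a score that sets 21 genes of later photoreceptors, such as *Aipl1* and *Prph2*, against 20 genes of neurogenesis, such as *Neurog2* and *Btg2*. None of them is a member. The cells were cut into 10 bins of equal size, and the members differed less between bins than between clusters 5 and 1. Cluster 5 made up 14.0% of bin 1 and 2.75% of bin 10, and cluster 7, led by *Slc7a3* and genes of the stress response, 20.3% and 1.93%. The low end of the score thus held more cells of cluster 7 than of cluster 5. *Gngt2* went from 1422 CPM in bin 1 to 2497 CPM in bin 10, *Gnb3* from 498 to 789 CPM, *Pdc* from 616 to 916 CPM and *Gnat2* from 128 to 226 CPM. *Cngb3* (154 and 172 CPM), *Cnga3* (24.1 and 37.5 CPM) and *Pde6c* (24.1 and 41.8 CPM) had intervals that overlapped between bins 1 and 10. *Opn1sw* had 6.02 CPM (2.75 to 11.4) in bin 1 and 24.5 CPM (17.0 to 34.2) in bin 10, but 7.77 CPM in bin 8, so that it did not rise evenly.

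In bins 9 and 10 against bins 1 and 2, *Opn1sw* was the 1 member at least 2-fold higher, 2.51-fold (1.61 to 4.01), where 2.25% of 11781 genes were. No member was at least 2-fold lower, where 2.57% of genes were. The mean rank of the UMIs on the score, for which 50 would be flat whatever the abundance, was 58.2 for *Opn1sw*, 55.6 for *Arr3*, between 52.7 and 53.9 for *Gngt2*, *Gnat2*, *Gnb3* and *Pdc*, and between 50.6 and 51.8 for *Cnga3*, *Pde6c* and *Cngb3*. Over 10778 genes with at least 50 UMIs, the 5% and 95% points of the mean rank were 46.0 and 54.0, and *Opn1sw* lay above that range and the 7 other members with as many UMIs within it. *Arr3*, with 21 UMIs, cannot be set against it. Here *Cnga3* lay near the flat value of 50, whereas it was nearly absent from cluster 5. The order also turned with the score. With the neurogenesis genes alone the rank of *Opn1sw* was 48.2, and along the first principal component of these cells the ranks of *Gngt2*, *Gnb3* and *Pdc* were 45.7, 45.2 and 44.8. Of the 36 pairs of members, 31 kept their order with the late genes alone, 29 along the component and 20 with the neurogenesis genes alone. With cluster 7 left out, 33 pairs kept their order.

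**Figure D4:**
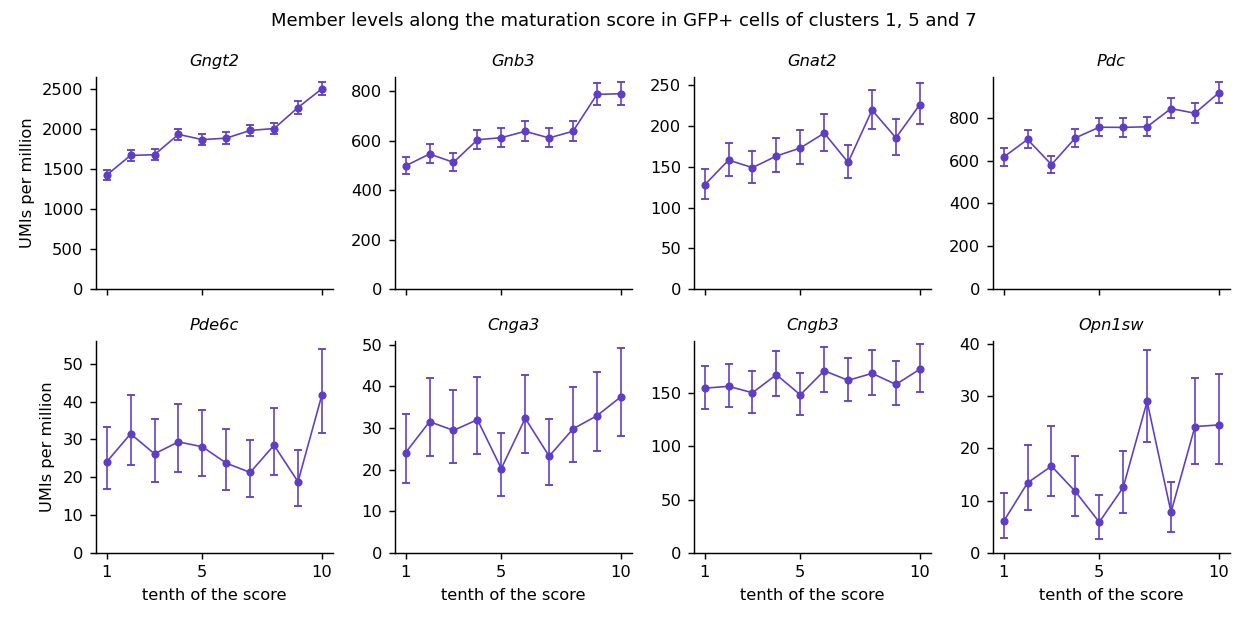
Levels of 8 members in CPM over 10 bins of the maturation score (1 is lowest) in GFP+ cells of clusters 1, 5 and 7, each axis starting at 0, with exact Poisson 95% intervals. *Gngt2* rises from 1422 to 2497 CPM, *Cngb3* has 154 and 172 CPM in the outer bins, and bin 7 of *Opn1sw* holds a single cell with 23 UMIs.

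The share of cells with a UMI, which follows abundance as well as onset, fell in steps. At 3200 UMIs per cell, 3065 of the 3639 cells could be used and 574 were too shallow. *Gngt2* was found in 94.9% (94.1 to 95.7) of them, *Gnb3* in 79.6% and *Pdc* in 79.4%, *Cngb3* in 38.7% and *Gnat2* in 38.4%, *Cnga3* in 8.84% and *Pde6c* in 7.93%, *Opn1sw* in 3.65% (3.02 to 4.38) and *Arr3* in 0.424% (0.226 to 0.724). Neighbours within each of the 3 named pairs did not differ beyond their intervals, and every step between pairs did. Without thinning the shares were 96.7% for *Gngt2*, 86.9% for *Gnb3*, 46.1% for *Cngb3* and 4.23% for *Opn1sw*, in the same order.

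Cells usually carried several members together. The median cell had 4 of the 9 detected members, 51.5% had 4 or more, 1.04% had none and no cell had all 9. Among 105 cells with a single member, it was *Gngt2* in 68.6%, *Gnb3* in 13.3%, *Pdc* in 8.57% and *Gnat2* in 6.67%. Among 413 cells with 2 members, *Gngt2* was 1 of them in 86.4%, *Gnb3* in 46.2% and *Opn1sw* in 0.242%. These shares follow abundance as well as onset. What the single shares alone would give was not computed for these cells, so the shares set no order of onset. Of 112 cells with *Opn1sw*, 109 had *Gngt2* and 98 had *Gnb3*, where the single shares alone would give 106 and 89.2. All 13 cells with *Arr3* had *Gngt2* and *Pdc*, where 12.3 and 10.3 would be expected.

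Co-detection was compared with what the single shares would give. Of 36 pairs, 30 had an odds ratio above 1, with a median of 1.52 over all pairs, and 2 of these, *Arr3* with *Gngt2* and with *Pdc*, had no finite value because no cell had *Arr3* without the other. Pairs of other genes were not counted in these cells, so whether such values are particular to the members was not tested. *Gngt2* with *Pdc* had the highest value among common members, 4.04, with 2355 cells holding both against 2311 expected, and *Gngt2* with *Gnb3* had 2.92. These values were lower within cluster 1 alone, 2.08 and 1.30, and the median fell to 1.36. *Gnat2* had odds ratios there of 1.75 with *Gngt2* and 1.23 with *Gnb3*. The channel subunits *Cnga3* and *Cngb3* shared 115 cells against 105 expected, an odds ratio of 1.19. *Opn1sw* and *Pde6c* shared 6 cells against 8.88 expected, an odds ratio of 0.649, the lowest of all pairs. *Opn1sw* and *Arr3* shared 2 cells against 0.475 expected, too few to read.

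*Opn1sw* was spread differently from members of similar level. Its 228 UMIs lay in 154 cells of clusters 1, 5 and 7, of which 127 had 1 UMI, 12 had 2, 8 had 3 and 7 had 4 or more. The cells with an *Opn1sw* UMI had 1.14-fold the *Gngt2* (1.08 to 1.20), 1.28-fold the *Gnb3* (1.17 to 1.40) and 1.24-fold the *Gnat2* (1.04 to 1.48) of the other cells, while *Cngb3* was 1.01-fold (0.819 to 1.23). At 3200 UMIs per cell, the variance of its counts was 4.56 times the mean, against 1.05 for *Pde6c* and 1.07 for *Cnga3*, near the value of 1 for random sampling. One cell of cluster 1 with 3878 UMIs held 23 UMIs of *Opn1sw*, 18 of *Gngt2* and none of *Cngb3*, *Cnga3* or *Pde6c*. Without it the ratio of variance to mean was 1.59, and the level in bin 7 of the score fell from 29.0 to 14.2 CPM.

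S-opsin is known to be favoured in the ventral mouse retina, so its level was compared between cells with UMIs of ventral genes (*Vax2*, *Vax1*, *Aldh1a3*, *Ephb2*, *Bmpr1b*) and none of dorsal genes (*Tbx5*, *Tbx2*, *Tbx3*, *Aldh1a1*, *Efnb2*), and the reverse. *Opn1sw* had 49 UMIs and 19.0 CPM in 582 ventral-type cells and 30 UMIs and 10.4 CPM in 661 dorsal-type cells, 1.83-fold (1.14 to 2.99). *Cngb3* went the other way, 146 against 178 CPM, 0.817-fold (0.713 to 0.935). *Pdc* was 1.10-fold (1.03 to 1.17), the intervals of the other members held 1, and *Arr3* had 4 UMIs in all. These genes were sparse (*Vax2* 33.1 CPM, *Tbx2* 45.8 CPM), so that most cells could not be placed.

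Cell groups set by other genes differed in the members as follows. The GFP+ cells of cluster 7 had 0.511 times the *Gnat2* of cluster 1 (0.420 to 0.615), 0.693 times the *Pdc* (0.640 to 0.749) and 0.896 times the *Gngt2*, while *Cnga3* (1.04) and *Pde6c* (1.18) had intervals that held 1. In 1500 cells with a *Fabp7* UMI, *Pde6c* was 0.577-fold (0.465 to 0.713) and *Cnga3* 0.695-fold, and *Gnat2* was equal at 1.01-fold (0.933 to 1.09). In 392 cells with a *Pcp4* UMI, *Gngt2* was 1.07-fold (1.03 to 1.11) and the other members had intervals that held 1. In 424 cells with a *Gngt1* UMI, *Pdc* was 1.32-fold (1.26 to 1.40) and *Gngt2* 1.25-fold (1.21 to 1.30), but *Gnat2* 1.02-fold (0.901 to 1.15). In 405 cells with a UMI of *Nrl*, the rod factor, *Cngb3* was lower, 0.785-fold (0.683 to 0.899), *Gngt2* was 0.928-fold (0.894 to 0.962), and no *Arr3* UMI was found.

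Over the 10 cluster and gate groups with at least 50 cells, the genes whose log2 level followed the mean of the detected members most closely among 3829 candidates were *Dnaic1* (Pearson's r = 0.999), *Rpgrip1* (0.997), *Samsn1* (0.997), *Gm4792* (0.996) and *Pgc* (0.995). Their levels were 247, 459, 241, 71.1 and 326 CPM in GFP+ and between 0.498 and 3.72 CPM in GFP-. The groups share 2 libraries and differ in depth, and *Rpgrip1* is also a gene of the score.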

How the data were processed

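The authors deposited raw UMI counts (1 integer for each gene in each cell) for barcodes that Cell Ranger 2.1.1 called as cells against mm10. Cells with more than 250 and fewer than 3500 genes were kept, as in the study's methods, with a mitochondrial share under 25%, the methods' limit being read as a fraction and not as the percentage printed there. Before this filter, Scrublet (scanpy 1.11.5, expected rate 0.03) called 3 GFP+ and 55 GFP- cells doublets, too few in GFP+ to rely on. Of these, 2 GFP+ and 0 GFP- cells passed the filter and were left in. The alternative without called doublets therefore removed few kept cells and tests little. Of genes found in more than 3 cells, 16673 were clustered in Seurat 5.3.0 (R 4.3.3) with 1992 variable genes, 30 components and resolution 0.3. Of the members, 8 were among the variable genes and were left out. Clusters were named from marker lists. Cells were thinned by drawing 3200 UMIs without replacement. A gene was called at 2-fold or 10-fold only, with 0.5 added to both sums for the gates and the score, and a 0 in cluster 5 was set to 3 counts. Python 3.11.15 with scipy 1.17.1 was used, edgeR 4.0.16 gave TMM factors, and the intervals, ranks and thinning were tested on simulated data. Gene positions are from GENCODE M21. The members and lists were chosen with earlier results of these data known. The named genes are the members, list genes at 50 CPM or with extreme ratios, and the 5 genes most alike; the 2-fold contrast of clusters 1 and 5, the dorsal and ventral split, the clumping of *Opn1sw* and the other list genes named were chosen after their values were seen. Values of 2 list genes are not reported here.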

Additional observations from a re-analysis of the deposited data

How the results depend on the processing

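No paired analysis was possible because each gate had 1 library. The 9 members called in GFP+ remained 9 under every filter, scaling and threshold tried, although TMM factors moved every log2 ratio by -0.33. Ratios of single members seen in both gates ranged from 47.5 (*Cngb3*, unscaled) to 1221 (*Pde6c*, no filter). The order of detection kept at least 34 of 36 pairs. The count of members at least 2-fold higher at the top of the score (bins 9 and 10 against 1 and 2) was 1, and it was 0 with the neurogenesis list alone, 0 along the first principal component and 0 in cells thinned to 3200 UMIs. With the neurogenesis list alone, 20 of 36 pairs kept their order of mean rank, and the ranks of *Gnat2* (49.3) and *Opn1sw* (48.2) fell below 50. With the late list alone those of *Cnga3* (48.8) and *Cngb3* (49.4) did. Along the first principal component, which correlated with the score at r = 0.0757 over cells, *Gngt2* (45.7), *Gnb3* (45.2), *Pdc* (44.8), *Pde6c* (40.7), *Cnga3* (37.8), *Cngb3* (45.6) and *Arr3* (46.2) did, and *Opn1sw* (52.8) did not. Between 30 and 33 of 36 pairs had an odds ratio above 1 in all alternatives. The 8 members at least 2-fold higher in cluster 1 than in cluster 5 were 7 in thinned cells, where *Gnat2* was 1.92-fold, while the count with regression before clustering was 2, *Cnga3* of those 8 and *Arr3*, which was not among them. The share of all genes was not computed for either alternative. Alternatives on clusters 1 and 5, on cluster 1 alone and without cluster 5 were chosen after seeing the data. The cause of these changes was not tested.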
